A study of Mus musculus with 6 samples.

Results

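Transcripts of 10 Hippo pathway genes were followed in aortic smooth muscle with and without Mymsl, a gene for a long noncoding RNA. They were the TEAD transcription factors Tead1, Tead2, Tead3 and Tead4, the coactivators Yap1 (YAP) and Wwtr1 (TAZ), the kinases Lats1 and Lats2, and the TEAD cofactors Vgll3 and Vgll4. They were taken by symbol from a table of read counts, in which all 10 were found among 53735 rows. The study compared aortas of Mymsl KO mice (3 libraries) with aortas of Mymsl WT mice (3 libraries), as total RNA of smooth muscle cells purified from the medial layer. No treatment separated the groups, and the labels used here name no strain, age or sex, nor the allele by which Mymsl was removed. Whether each library came from 1 mouse is not stated, so the spread behind each p-value is that between libraries and may in part be technical. The series text speaks of KO and WT mice in 3 pairs, but not of what a pair shared or which libraries formed one, and the libraries were compared as unpaired groups. No row carried the name Mymsl, so the deletion was not checked under that name.

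The Hippo pathway is a kinase cascade that restrains YAP and TAZ. The kinases STK3 and STK4, with their partner SAV1, activate LATS1 and LATS2 and their partner MOB1. LATS kinases phosphorylate YAP and TAZ, which are then held in the cytoplasm or degraded, and unphosphorylated YAP and TAZ enter the nucleus and bind TEAD proteins on DNA. VGLL proteins bind TEAD proteins too. In smooth muscle, TEAD proteins bind MCAT elements of muscle genes, and YAP and TAZ are known to respond to stretch and matrix stiffness. Much of this control acts on proteins, and only transcript levels were measured here.

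Total counts lay between 20048216 and 23243129 in KO libraries and between 23506674 and 25521123 in WT libraries. Smooth muscle markers were high throughout: 12 of them, including Acta2, Myh11 and Tagln, summed to 44761 to 59609 CPM (counts scaled to a common library size, TMM-normalized) in KO and to 54203 to 57672 CPM in WT. The mitochondrially encoded share was 18.9% in KO replicate 1, 10% in KO replicate 2 and 12.98% in KO replicate 3, and it lay between 5.66% and 9.02% in WT. Heart muscle markers summed to 156, 107 and 91.8 CPM over the KO replicates in order and to 79.3 to 113 CPM in WT. Nppa and Myl2 stayed at no more than 10 counts in any library. Most of each sum was Ryr2, at 69.4 to 81.4 CPM in KO and 54.4 to 93.0 CPM in WT. Relative to the WT mean, log2 CPM averaged over the 8 tested markers was 1.76, 0.706 and −0.164 in KO replicates 1, 2 and 3. In WT it lay between −0.357 and 0.363. Myh6 had 259, 64 and 10 counts in the KO replicates in order and 9 to 41 in WT. Skeletal muscle markers summed to 9.25 to 12.6 CPM in KO and 8.32 to 13.1 CPM in WT, and 7 of 12 never passed 10 counts. Of the other cell types, the summed CPM in KO and in WT ran from 543 to 865 and from 500 to 632 for endothelial cells, from 2372 to 3870 and from 2547 to 3352 for adventitial fibroblasts, and from 53.4 to 145 and from 57.9 to 97.3 for macrophages. The same ranges were 194 to 343 and 158 to 326 for adipocytes, 275 to 280 and 278 to 304 for Schwann cells, and 25.6 to 35.7 and 20.3 to 152 for erythroid cells. Log2 fold changes (KO over WT) were above 0 for 7 of 8 tested heart muscle markers, 9 of 12 endothelial, 9 of 12 fibroblast, 11 of 11 macrophage and 11 of 12 adipocyte markers. They were below 0 for 10 of 12 smooth muscle and 5 of 5 erythroid markers. The part of these differences in the results below was not tested. In bulk RNA, fewer cells of a type and less RNA per cell cannot be told apart.

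Relative to WT, the Hippo genes with the higher levels in these libraries mostly had lower means in KO. The 2 scarcest TEAD genes had higher means. Lats1 had the largest difference among the lower ones, at 24.3% below the WT mean, and Vgll3, Tead1 and Wwtr1 lay 22.4%, 16.9% and 15.5% below it. The means of Tead3 differed by −0.613%, less than its spread between libraries. None of the 10 passed edgeR's quasi-likelihood test over all 14145 genes tested (adjusted p of 0.239 or above), where 1 gene in all passed as lower (0.00707%) and 0 as higher (0%). DESeq2 called Lats1 as lower, 1 of the 8 genes to which it gave an adjusted p, while it called 1.64% of all its rows as lower and 0.709% as higher.

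**Figure D1:**
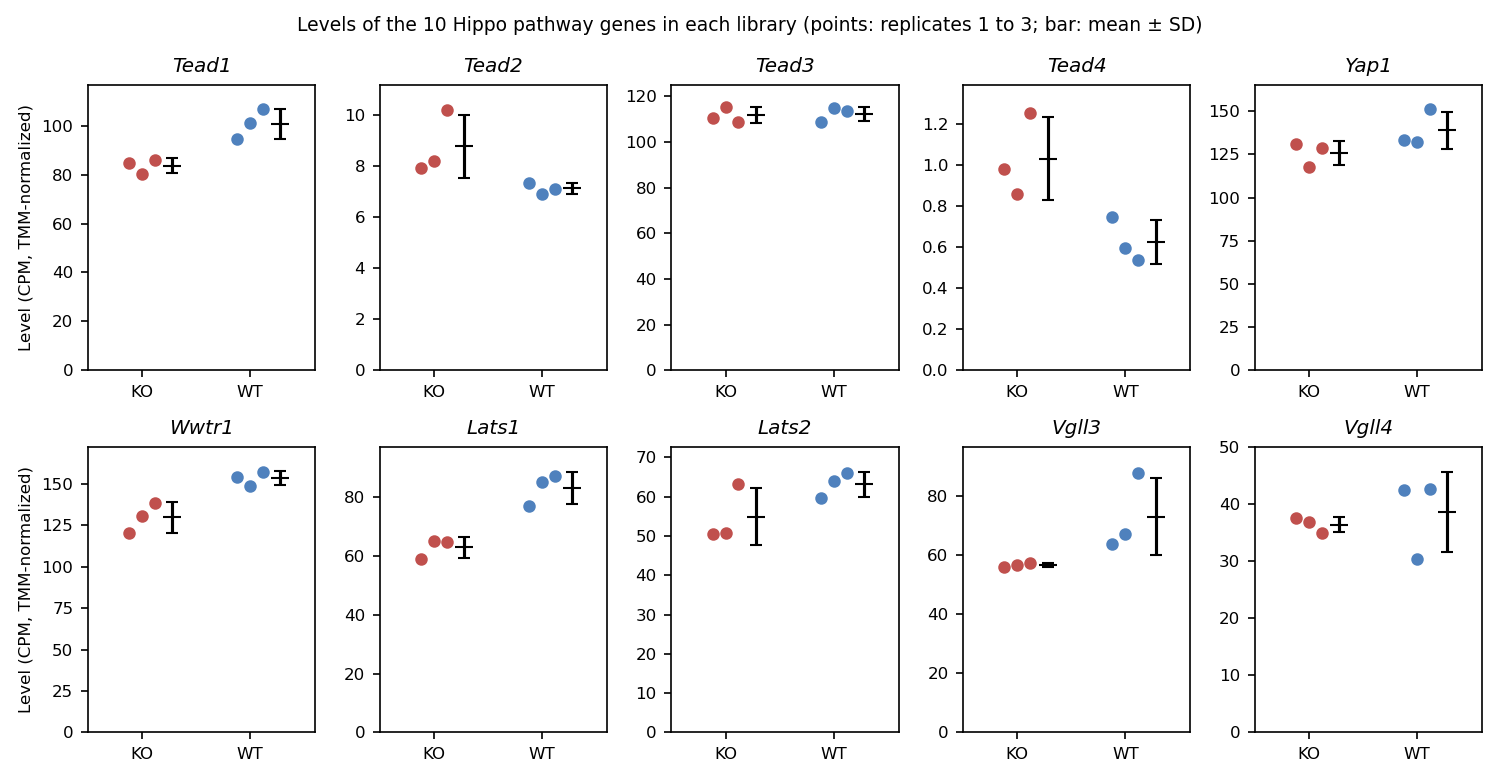
Levels of the 10 genes in CPM (TMM-normalized) in 3 KO and 3 WT libraries, with each axis starting at 0. Points are libraries in the order of replicates 1 to 3, and bars give mean ± SD. KO points sit below all WT points for Tead1, Yap1, Wwtr1, Lats1 and Vgll3 and above them for Tead2 and Tead4.

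All 10 genes passed the filter on low counts. Their log2 fold changes (KO over WT) were below 0 for 8 and above 0 for 2, with a median of −0.17. Of all tested genes 47.5% were below 0, and their median was 0.012. The 12 smooth muscle markers had a similar shift, with 10 below 0 and a median of −0.142. The share below 0 was higher among long genes, at 52.1% in the third and 62.5% in the longest of 4 length classes. These classes, described below, hold all of the 10 genes but Tead4. All KO libraries lay below all WT libraries for 5 of the 10, as for 11.3% of all tested genes, and above them for 2 of the 10, as for 10.5% of all. At an unadjusted edgeR p under 0.05 there were 4 lower genes and 1 higher, against 7.76% and 6.8% of all tested genes. These genes and the lists below were chosen with earlier results of these data known, so no test was made of the set. KO replicate 1 had the highest mitochondrial share and WT replicate 3 the lowest, and leaving out this pair gave log2 fold changes of −0.32 for Lats1, −0.23 for Tead1, −0.20 for Vgll3, −0.17 for Wwtr1, −0.11 for Lats2 and −0.10 for Yap1. Leaving them out was chosen after seeing the data.

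Lats1 and Lats2 encode the kinases that phosphorylate YAP and TAZ. Lats1 measured 58.9, 65.25 and 64.7 CPM in the 3 KO replicates, in their order, against 77.1, 85.3 and 87.1 CPM in WT replicates 1, 2 and 3. The highest KO library stood well below the lowest WT library. Its means were 62.9 ± 3.51 CPM in KO and 83.15 ± 5.35 CPM in WT (SD, n = 3 each). The log2 fold change, KO over WT with its SE, was −0.40 ± 0.071. By unadjusted p Lats1 ranked at place 24 of 14145 tested genes, and its adjusted p was 0.239 in edgeR and 0.00689 in DESeq2. The DESeq2 call was lost without KO replicate 1 (adjusted p = 0.0586) or without WT replicate 3 (0.174), with log2 fold changes of −0.36 and −0.37, and it held without each of the other 4 libraries.

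Lats2, the paralogue of Lats1 and itself a known YAP target, measured 50.6, 50.8 and 63.3 CPM in KO replicates 1, 2 and 3, and 59.6, 63.95 and 65.9 CPM in WT replicates 1, 2 and 3. KO replicate 3 lay within the WT range, and the other KO libraries lay below it. The log2 fold change was −0.20 ± 0.096 (adjusted p = 0.374 in edgeR), and −0.32 without KO replicate 3. The annotation places a second gene, Gm49361, over 2955 exonic bases of Lats2 on the same strand. No row carried that name, so the count of Lats2 is uncertain over those bases.

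The coactivators TAZ and YAP carry the signal into the nucleus and bind DNA only through partners. Wwtr1, which encodes TAZ, measured 120.2, 130.3 and 139 CPM in the 3 KO replicates, in order, against 154, 149 and 157 CPM in WT replicates 1, 2 and 3. The groups did not overlap, and KO replicate 1 was the lowest of the 6 libraries. Its means were 129.7 ± 9.20 CPM in KO and 153 ± 4.27 CPM in WT (SD, n = 3 each), with a log2 fold change of −0.24 ± 0.070 (adjusted p = 0.273 in edgeR and 0.106 in DESeq2). Yap1 measured 131, 118 and 129 CPM in KO and 133, 132 and 152 CPM in WT. Its KO libraries also lay below the WT libraries, but by a margin smaller than the spread within either group. The log2 fold change of Yap1 was −0.14 ± 0.078 (adjusted p = 0.419), and it was −0.07 without WT replicate 3.

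Counted per kilobase of exon, so that genes of different length can be compared, Wwtr1 made up 66.6% ± 2.26 of the summed Wwtr1 and Yap1 level in KO and 68.2% ± 1.23 in WT (SD, n = 3 each). The difference of −1.6 percentage points was within the spread between libraries (exact two-sided permutation p = 0.4), and it was −0.305 without KO replicate 1. The size of the share depended on the length used. With the longest transcript Wwtr1 made up 53.6% in KO and 55.4% in WT, and with no length 50.7% in KO and 52.5% in WT.

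TEAD proteins are the DNA-binding partners of YAP and TAZ. Tead1, the member best known from smooth and heart muscle, measured 84.8, 80.2 and 86.2 CPM in the 3 KO replicates, in order, against 94.6, 101 and 107 CPM in WT replicates 1, 2 and 3. Every KO library stood below every WT library. Its means were 83.7 ± 3.10 CPM in KO and 101 ± 6.09 CPM in WT (SD, n = 3 each), and its log2 fold change was −0.27 ± 0.066 (adjusted p = 0.263 in edgeR and 0.0652 in DESeq2). Tead3, another broadly expressed member, measured 111, 115.5 and 109 CPM in KO and 109, 115 and 113 CPM in WT. The groups overlapped fully, with a log2 fold change of −0.01 ± 0.057.

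Tead2, a member typical of embryonic tissue, measured 7.94, 8.21 and 10.2 CPM in KO replicates 1, 2 and 3, and 7.34, 6.91 and 7.12 CPM in WT replicates 1, 2 and 3. Tead4, known for its role in the early embryo and in skeletal muscle, had 19, 18 and 29 counts in KO and 18, 15 and 13 counts in WT, or 1.03 ± 0.20 CPM in KO and 0.627 ± 0.11 CPM in WT (SD, n = 3 each). For both genes every KO library lay above every WT library after scaling, and KO replicate 3 was the highest. Log2 fold changes were 0.30 ± 0.133 for Tead2 and 0.72 ± 0.297 for Tead4 (adjusted p = 0.347 and 0.33 in edgeR), and DESeq2 gave neither an adjusted p. Without KO replicate 3 they were 0.18 and 0.55. That library also had the highest summed endothelial (865 CPM), macrophage (145 CPM) and adipocyte (343 CPM) markers of all libraries. Fibroblast and heart muscle markers summed highest in KO replicate 1. The part of these cell types in the differences of Tead2 and Tead4 was not tested. Counts as low as those of Tead4 carry a large counting error.

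As a share of the summed TEAD level per kilobase, Tead1 made up 25.3%, 23.6% and 25.4% over the 3 KO replicates, in order, against 27.98%, 28.5% and 29.8% in WT replicates 1, 2 and 3. That is a difference of −3.99 percentage points with no overlap (24.77% ± 1.02 in KO and 28.75% ± 0.94 in WT; SD, n = 3 each; exact two-sided permutation p = 0.1, the smallest that 3 against 3 libraries allow). Tead3 held 66.7% ± 1.95 of the TEAD level in KO and 64.8% ± 0.71 in WT (exact permutation p = 0.3). Tead2 held 7.36% ± 1.0 in KO and 5.77% ± 0.34 in WT, and Tead4 held 1.15% ± 0.22 in KO and 0.677% ± 0.14 in WT (SD, n = 3 each; exact permutation p = 0.1 for both). These 4 shares sum to the whole, so they are not independent of each other. With the longest transcript in place of all exonic bases, the difference for Tead1 was −3.23 percentage points. Either length divides a gene by the same number in every library, so it cannot remove the length trend described below. With that trend removed, log2 fold changes were −0.18 for Tead1 and 0.0183 for Tead3, and the shares were not computed in that way.

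**Figure D2:**
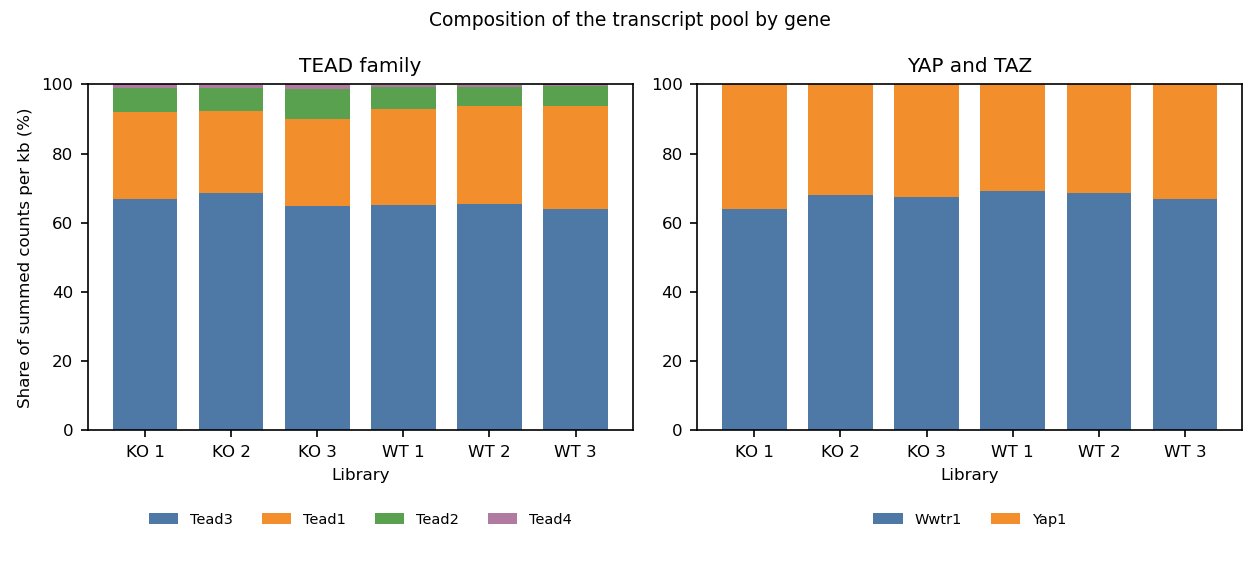
Share (%) of each gene in the summed counts per kilobase of exon, by library, for the 4 TEAD genes and for Wwtr1 with Yap1. Tead3 fills 64.01% to 68.62% of every TEAD bar, and the Tead1 segment is 23.6% to 25.4% high in KO libraries and 27.98% to 29.8% in WT libraries.

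VGLL proteins bind the TEAD surface that YAP and TAZ also use. Vgll3 measured 56.0, 56.5 and 57.3 CPM in the 3 KO replicates, in order, against 63.7, 67.2 and 87.9 CPM in WT replicates 1, 2 and 3. The KO libraries lay close together and below all WT libraries, among which WT replicate 3 stood apart as the highest. Its log2 fold change was −0.37 ± 0.117 (adjusted p = 0.279 in edgeR and 0.127 in DESeq2), and −0.21 without WT replicate 3. Vgll4, a repressor of TEAD activity, measured 37.5, 36.9 and 34.9 CPM in KO and 42.5, 30.45 and 42.7 CPM in WT. The WT libraries enclosed the KO libraries, and the log2 fold change was −0.08 ± 0.130, and −0.23 without WT replicate 2, the lowest library.

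**Figure D3:**
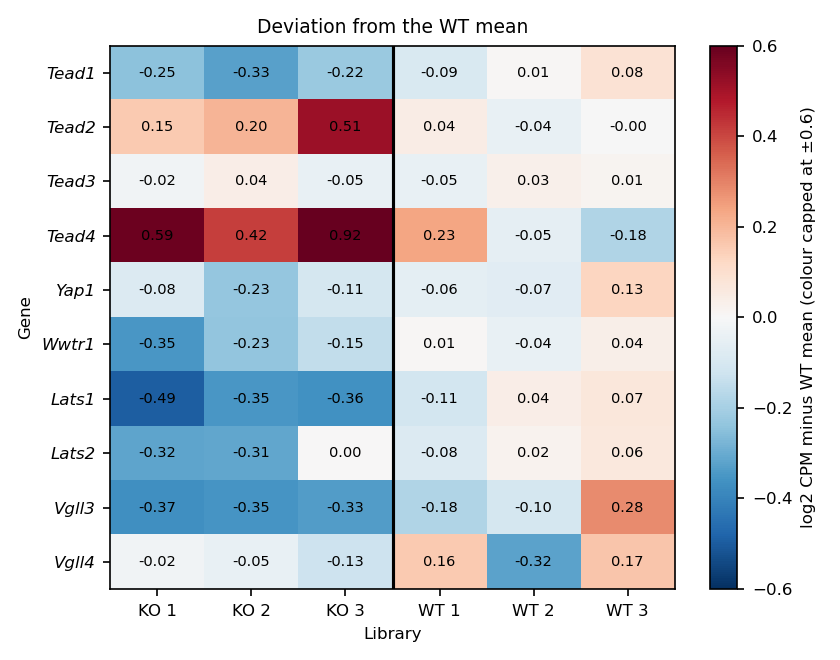
Log2 CPM of each gene in each library minus the mean of the 3 WT libraries, with blue for lower and red for higher values and colour capped at ±0.6. Lats1 lies between −0.495 and −0.347 in KO libraries and Tead1 between −0.33 and −0.22, whereas Tead3 stays between −0.0463 and 0.0408 in all 6.

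Levels per kilobase of exon put Wwtr1 first in both groups, at 27.1 ± 1.93 CPM per kb in KO and 32.1 ± 0.89 in WT (SD, n = 3 each). Tead3 followed with 16.6 ± 0.52 in KO and 16.7 ± 0.47 in WT, and Yap1 with 13.6 ± 0.76 in KO and 15.0 ± 1.18 in WT, where the libraries of Tead3 and Yap1 overlapped in WT only. Lats1 (8.62 in KO, 11.4 in WT), Vgll3 (7.96 and 10.3), Lats2 (7.88 and 9.06), Vgll4 (6.75 and 7.15) and Tead1 (6.17 and 7.43) formed a middle group of neighbours. Of these neighbours in the order of levels, Vgll3 overlapped Lats2 in KO, and in WT Lats1 overlapped Vgll3, Vgll3 overlapped Lats2, and Tead1 overlapped Vgll4. Tead2 (1.83 and 1.49) and Tead4 (0.286 and 0.174) came last, each with no overlap with its neighbours. The order depends on the length used. With the longest transcript, Tead3 came to 32.4 CPM per kb in KO and 32.6 in WT, against 27.6 in KO and 32.7 in WT for Wwtr1, and Vgll4 moved up to the fourth place in both groups.

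Most of the Hippo genes are long, and fold changes varied with length over the whole table. Among 12477 tested genes with an annotated length (88.2% of those tested), the median log2 fold change was 0.067 in the first of 4 length classes of like size (up to 2893 exonic bases), 0.027 and −0.01 in the middle classes, and −0.06 in the longest class (from 7005 bases). Tead1 (13570 bases), Yap1 (9257), Lats1 (7297) and Vgll3 (7104) belong to the longest class. Tead2, Tead3, Wwtr1, Lats2 and Vgll4 belong to the third class, and Tead4 to the second. From the shortest class to the longest, 34%, 44.1%, 52.1% and 62.5% of genes had a fold change below 0. With the length trend of each library removed, an alternative added after the data were seen, log2 fold changes were −0.37 for Lats1, −0.33 for Vgll3, −0.24 for Wwtr1, −0.18 for Tead1, −0.17 for Lats2 and −0.09 for Yap1. Tead1 thus moved from −0.27 to −0.18, by more than its standard error of 0.066. Yap1 moved from −0.14 to −0.09, and Yap1, Lats1, Vgll3 and Wwtr1 each moved by less than their standard errors.

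**Figure D4:**
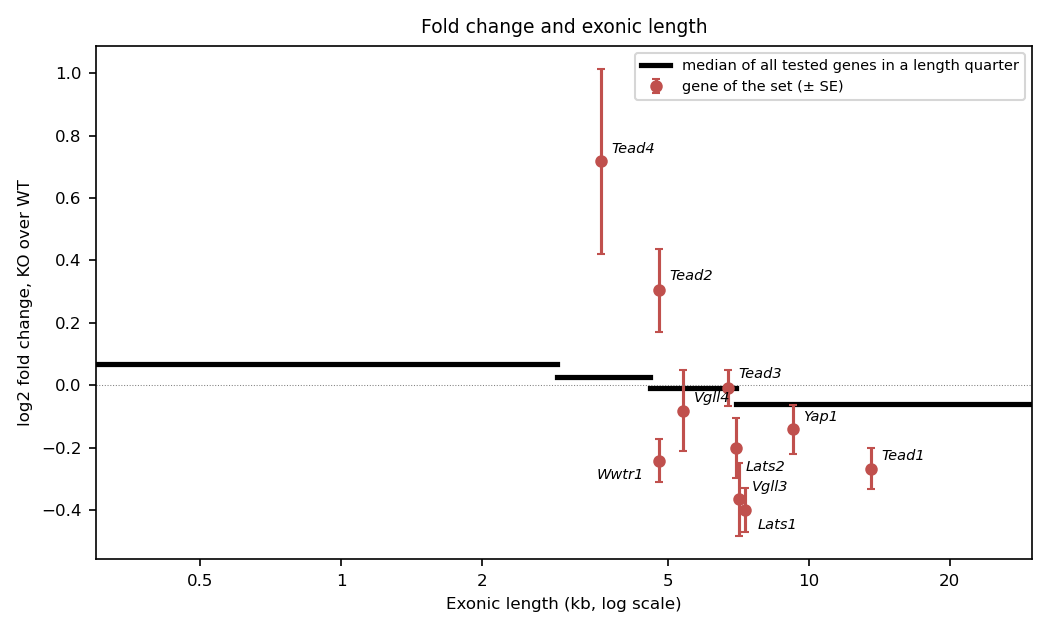
Log2 fold change (KO over WT, ± SE) against exonic length in kilobases on a log axis for the 10 genes, with black lines for the median of all tested genes in each of the 4 length classes (drawn from 0.3 to 30 kb). The medians step down from 0.067 to −0.06, and Lats1, Vgll3, Wwtr1 and Tead1 lie below the line of their class.

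Other genes of the Hippo pathway, a list of 35 without the 10 above, mostly had small negative fold changes. Of 33 tested, 25 had a log2 fold change below 0 and 8 above 0, with a median of −0.11 (all tested genes, 47.5% below 0 and a median of 0.012). In edgeR 0 passed in either direction. At an unadjusted p under 0.05 there were 10 lower and 1 higher, against 7.76% and 6.8% of all tested genes, and DESeq2 called 1 of 31 as lower, against 1.64% of all its rows. All KO libraries lay below all WT libraries for 9 of the 33 and above for 1, against 11.3% and 10.5% of all tested genes. The core partners had small differences: Stk3 and Stk4, the upstream kinases, had −0.14 ± 0.067 and −0.11 ± 0.069, with every KO library below every WT library for each, and Stk4 had −0.06 without KO replicate 1. Their scaffold Sav1 had −0.10 ± 0.067, and the upstream regulator Nf2 had −0.09 ± 0.078, with overlapping groups. Sav1 had −0.05 without KO replicate 2 and −0.06 without WT replicate 3. Nf2 had −0.01 without WT replicate 3, and −0.05 or −0.14 when KO replicate 3 or WT replicate 2 was left out. Mob1a and Mob1b, the partners of LATS kinases, had −0.30 ± 0.126 and −0.23 ± 0.076 (adjusted p = 0.338 and 0.279 in edgeR), and the value of Mob1a was −0.16 without WT replicate 3. With the length trend of each library removed, Mob1b had −0.14.

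The smallest p in that list belonged to Frmd6, a FERM-domain protein related to the fly Hippo regulator Expanded. It measured 65.3, 64.7 and 69.5 CPM in the 3 KO replicates, in order, against 84.8, 80.9 and 87.0 CPM in WT replicates 1, 2 and 3 (log2 −0.34 ± 0.058, adjusted p = 0.239 in edgeR and 0.00846 in DESeq2). The groups were well apart, and the DESeq2 call was lost without KO replicate 1 (adjusted p = 0.0649), WT replicate 1 (0.136) or WT replicate 3 (0.188). Map4k4, a kinase that can activate LATS alongside STK3 and STK4, measured 87.5, 84.9 and 90.7 CPM in KO and 119, 96.5 and 139 CPM in WT (−0.43 ± 0.122, and −0.29 without WT replicate 3). Taok1, a kinase upstream of STK3 and STK4, had −0.20 ± 0.064, and −0.12 with the length trend removed. Strn3, a subunit of the phosphatase complex that opposes them, had −0.20 ± 0.061. Stk38, a kinase of the same family as LATS, had the highest fold change of the list. It measured 81.7, 70.3 and 71.05 CPM in the KO replicates in order, against 57.6, 65.2 and 53.6 CPM in WT replicates 1, 2 and 3 (0.34 ± 0.092, adjusted p = 0.264 in edgeR). Vgll1 had 0 counts in every library, which allows up to 3 counts per library, and Vgll2 stayed below the filter.

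**Figure D5:**
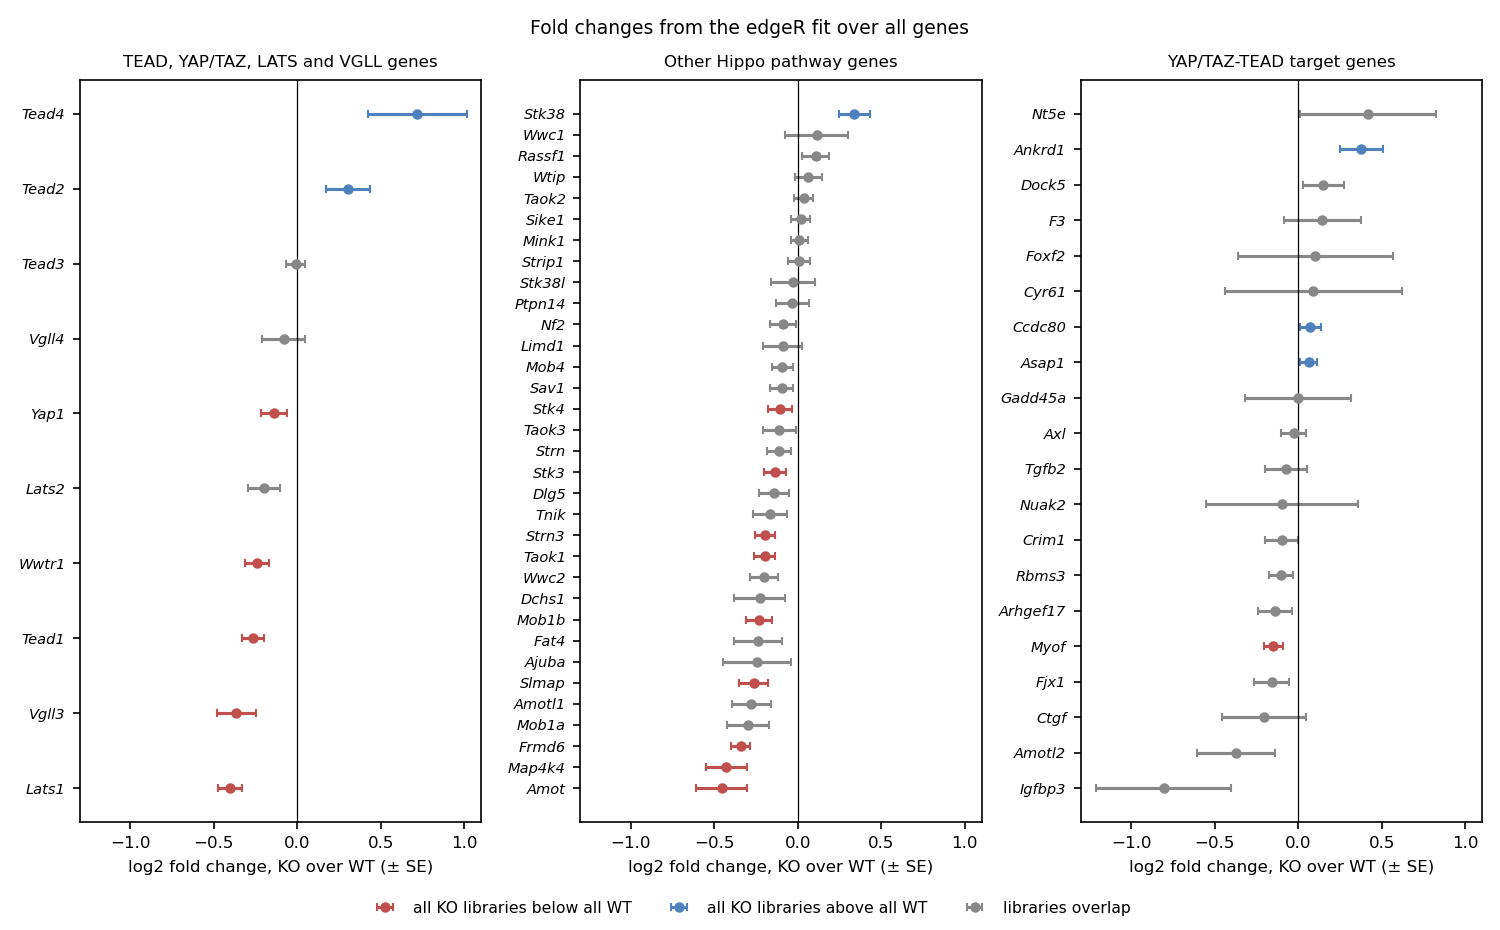
Log2 fold change (KO over WT, ± SE) from the edgeR fit for the tested genes of 3 groups, with red where all KO libraries lie below all WT libraries, blue where they lie above and grey where they overlap. The 10 genes run from −0.40 for Lats1 to 0.72 for Tead4, most of the other Hippo genes lie left of 0, and the target genes spread to both sides of it.

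Target genes of YAP, TAZ and TEAD, 20 genes known mainly from human cells, had values on both sides of 0. Of 20 tested, 12 were below 0 and 8 above, with a median of −0.05 (all tested genes, 47.5% below 0), and 0 passed in edgeR or, of the 14 with an adjusted p, in DESeq2. At an unadjusted p under 0.05 there was 1 higher gene, Ankrd1, and 1 lower, Myof, against 6.8% and 7.76% of all tested genes. All KO libraries lay above all WT libraries for 3 of the 20 and below for 1, against 10.5% and 11.3% of all. These counts are near those shares. Whether this list differs from the pathway genes was not tested.

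Ctgf and Cyr61, the targets most often used as readouts of YAP and TAZ, encode secreted matricellular proteins. Ctgf measured 1180, 969.5 and 1620 CPM in the 3 KO replicates, in order, against 1242, 1135 and 1968 CPM in WT replicates 1, 2 and 3. Cyr61 measured 359, 138.5 and 630.3 CPM in KO and 190.4, 359 and 510 CPM in WT. For both genes the spread within each group exceeded the difference between the group means, with log2 fold changes of −0.21 ± 0.251 and 0.09 ± 0.530. Leaving out WT replicate 3 turned Ctgf to 0.08, and leaving out KO replicate 3 or WT replicate 1 turned Cyr61 to −0.51 or −0.21. Amotl2, a target that also binds YAP, measured 39.1, 42.9 and 60.85 CPM in KO and 43.3, 63.6 and 78.0 CPM in WT (−0.37 ± 0.233). Its groups overlapped, and its value was −0.16 without WT replicate 3. It was larger in size when KO replicate 3 (−0.59) or WT replicate 1 (−0.57) was left out.

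Ankrd1, a nuclear ankyrin repeat protein abundant in heart muscle, measured 13.4, 11.9 and 12.6 CPM in the 3 KO replicates, in order, against 11.3, 9.37 and 8.52 CPM in WT replicates 1, 2 and 3. Every KO library lay above every WT library (0.38 ± 0.128, adjusted p = 0.279 in edgeR). Over replicates 1 to 3, the summed heart muscle markers were 156, 107 and 91.8 CPM in KO and 108, 79.3 and 113 CPM in WT. Most of each sum was Ryr2, at 81.4, 78.1 and 69.4 CPM in KO and 87.4, 54.4 and 93.0 CPM in WT. Averaged over the 8 tested heart markers, log2 CPM relative to the WT mean was 1.76, 0.706 and −0.164 in KO. In WT this average was −0.357, 0.363 and −0.006. Both the sum and the average were highest in KO replicate 1, where Ankrd1 was also highest. The part of heart muscle RNA in the difference of Ankrd1 was not tested. Myof, a membrane repair protein, had −0.15 ± 0.058, and −0.07 with the length trend of each library removed. The growth factor binding protein Igfbp3, at 1.53 to 2.72 CPM in KO and 2.32 to 6.22 CPM in WT, had −0.80 ± 0.403 and −0.27 without WT replicate 1. Fjx1, the homologue of the fly kinase Four-jointed, had −0.16 ± 0.105 and −0.07 without KO replicate 1.

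MCAT elements, to which TEAD proteins bind, have the core CATTCC, read GGAATG on the other strand. The promoter table, from RefSeq on GRCm38.p6, held 12 promoters of 8 of the 10 genes, and Tead1 and Tead4 had no entry. In the 250 bases before the transcript start, 7 of these 12 promoters and 5 of the 8 genes held the core on either strand, against 12.6% of all 32851 promoters and 14.4% of all 27025 genes in the table. Promoters of 1 gene can share bases, as the pair of Wwtr1 does. Genes with a core were Tead3, Yap1, Wwtr1, Vgll3 and Vgll4. Among the other Hippo genes 7 of 28 held it, and among the target genes 5 of 13, including Cyr61, Ankrd1 and Amotl2. A core is a match of letters, not evidence of binding, and the genes with one included Tead3, whose groups overlapped, as well as Wwtr1 and Vgll3. Promoters of 5 genes follow, 5′ to 3′ and ending at the base before the start, to show where the core stands in genes of different fold change. Capitals mark the core. Wwtr1 is at chr3:57575911-57576160 on the minus strand with the core from position −136, Yap1 at chr9:8004597-8004846 on the minus strand from −141, and Vgll3 at chr16:65814939-65815188 on the plus strand from −63. The target gene Cyr61 is at chr3:145649986-145650235 on the minus strand from −103, and Lats1 at chr10:7680959-7681208 on the plus strand has no match in this window.
Wwtr1: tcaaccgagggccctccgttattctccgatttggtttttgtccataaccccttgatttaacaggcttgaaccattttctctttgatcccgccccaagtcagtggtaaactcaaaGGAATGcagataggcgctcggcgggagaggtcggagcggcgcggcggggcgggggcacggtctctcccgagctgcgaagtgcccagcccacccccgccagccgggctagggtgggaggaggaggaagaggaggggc
Yap1: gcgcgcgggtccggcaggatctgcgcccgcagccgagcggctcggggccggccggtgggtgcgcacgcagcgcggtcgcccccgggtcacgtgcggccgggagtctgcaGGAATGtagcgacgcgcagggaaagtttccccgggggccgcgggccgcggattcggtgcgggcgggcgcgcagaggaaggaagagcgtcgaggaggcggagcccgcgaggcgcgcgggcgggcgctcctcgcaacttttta
Vgll3: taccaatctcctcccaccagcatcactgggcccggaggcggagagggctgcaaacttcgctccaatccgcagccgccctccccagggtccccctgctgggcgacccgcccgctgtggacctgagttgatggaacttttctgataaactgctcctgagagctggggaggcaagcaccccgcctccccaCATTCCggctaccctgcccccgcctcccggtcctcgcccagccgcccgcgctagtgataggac
Cyr61: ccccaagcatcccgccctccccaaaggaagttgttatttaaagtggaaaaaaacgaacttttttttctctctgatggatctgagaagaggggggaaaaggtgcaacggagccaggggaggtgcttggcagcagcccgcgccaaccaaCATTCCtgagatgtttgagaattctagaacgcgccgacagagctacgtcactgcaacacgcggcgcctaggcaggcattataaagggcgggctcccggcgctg
Lats1: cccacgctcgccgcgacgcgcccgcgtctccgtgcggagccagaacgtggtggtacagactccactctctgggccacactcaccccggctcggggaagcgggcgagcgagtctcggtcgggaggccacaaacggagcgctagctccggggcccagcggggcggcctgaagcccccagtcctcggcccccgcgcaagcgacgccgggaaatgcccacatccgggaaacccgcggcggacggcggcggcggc

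On GRCm38, all 10 genes are annotated as protein-coding. Tead1 spans 112679318 to 112906807 of chromosome 7 on the plus strand, and Lats1 spans 7681214 to 7716460 of chromosome 10 on the plus strand. On the minus strand lie Wwtr1, from 57455649 to 57575910 of chromosome 3, and Yap1, from 7931999 to 8004596 of chromosome 9, and Vgll3 spans 65815257 to 65866368 of chromosome 16 on the plus strand. Besides Lats2, exons of another gene overlap Tead2 over 13 bases (Cd37, opposite strand) and Yap1 over 116 bases (Gm20416, opposite strand, no row of that name). The library kit marks strand, but no source used here gives the strand setting of the counting.

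Genes of most alike pattern were ranked among 9879 protein-coding genes with a mean of at least 5 CPM, by the root mean square difference of log2 CPM over the 6 libraries after centring each gene on its own mean. Closest to Tead1 were Pou2f1 (0.025), Btbd7 (0.026), Utrn (0.0294), Rps6ka3 (0.0322) and Zscan25 (0.0351), where the median candidate stood at 0.18. Closest to Wwtr1 were Zfp644 (0.0186), Ddx10 (0.0254), Arhgap44 (0.0276), Kpna1 (0.0287) and Alg11 (0.0287), with a median candidate at 0.172. As these genes were chosen by their levels in the same KO and WT libraries, fold changes near those of Tead1 and Wwtr1 follow from the choice. All 10 had log2 fold changes between −0.27 and −0.21, and none passed in edgeR (adjusted p between 0.239 and 0.358). Within the Hippo genes, Yap1 stood 294th from Tead1 (0.0767) and Wwtr1 353rd (0.0799), so neither was among its nearest neighbours.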

How the data were processed

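The authors deposited raw read counts per gene, 1 column for each of 6 libraries of mouse aortic smooth muscle RNA. The submitters' processing notes name Subread 1.6.1 with featureCounts, STAR 2.6.0c, Trimmomatic 0.36 and the build GRCm38. No source used here gives the annotation release, the strand setting or how multi-mapping reads were treated. Per the labels' protocols, libraries were made with a stranded mRNA kit. Total counts of 20048216 to 25521123 limit the precision of low genes such as Tead4. No batch is given in the labels.

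Low rows were removed by filterByExpr (at least 10 counts, 15 in total) and the others tested with edgeR 4.0.16 in R 4.3.3 (quasi-likelihood test, TMM normalization, genotype as the only term). P-values were two-sided and adjusted over all 14145 tested rows by Benjamini and Hochberg, with a threshold of 0.05. A standard error is the size of the fold change over the root of F. CPM are TMM-normalized, and log2 CPM used a prior count of 2. Lengths, positions and spans come from GENCODE M21 on GRCm38, matched by symbol, and promoters from RefSeq on GRCm38.p6. Single values per library were compared with exact permutation tests. The fits were tested on simulated data.

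Alternatives were DESeq2 1.42.0 (its size factors and its test), limma 3.58.1 (voom), no filter, a mean count of at least 50, leaving out mitochondrially encoded and hemoglobin genes, a replicate block, and each library left out in turn. Some were chosen after seeing the data: 2 libraries left out, the length trend removed, and a replicate block and left-out libraries in DESeq2.

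The genes and lists were chosen with earlier results of these data known. Named were all 10 genes, 6 core Hippo partners, 4 known targets, the 5 genes of smallest p in the list of other Hippo genes and in that of targets (as none passed), and the 5 genes most alike in pattern to Tead1 and to Wwtr1.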

Additional observations from a re-analysis of the deposited data

How the results depend on the processing

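Over all genes, edgeR called 0 as higher and 1 as lower in KO. These counts were 60 and 139 with the DESeq2 test, 26 and 50 with DESeq2 and a replicate block, 5 and 4 with no filter, 0 and 0 with a replicate block in edgeR, and 0 and 0 without the pair KO replicate 1 and WT replicate 3. Over single left-out libraries they ranged from 0 to 2 (2 without KO replicate 2) and from 0 to 1 (0 without WT replicate 1). Of the 10 Hippo genes 1 (Lats1) was called by DESeq2 with and without the block (adjusted p = 0.04 with it), and of the other Hippo genes 1 (Frmd6) by DESeq2 without it. The cause of these differences was not tested. Whether replicate numbers mark the pairs that the series text speaks of is not stated. Deviations of same-numbered libraries correlated at 0.107, 0.134 and −0.056 across genes, and not each was above 0.1. KO replicate 3 correlated best with WT replicate 1 (0.179). With 3 libraries per group these values cannot decide whether the numbers mark pairs. The numbers were not treated as pairs in the main test. With the block, the unadjusted edgeR p was 0.00788 for Amotl2 and 0.0831 for Ctgf, against 0.152 and 0.439 without it, and their adjusted p was 0.301 and 0.398. With the replicate block edgeR gave Lats1 −0.40 and Tead1 −0.27. The shares were not part of that fit. Taking same-numbered libraries as pairs leaves their differences at −3.99 points for Tead1 and −1.6 for Wwtr1 by construction, and only the p-value changes. For the Tead1 share it was 0.25 in an exact test that flips the signs of the paired differences, the smallest that 3 pairs allow.

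Of 447 fold changes of 28 named genes under alternatives, 13 changed sign, all from values within 1 standard error of 0. Tead3 was 0.0183 with the length trend removed and 0.00474 without that pair of libraries, and it ran from −0.0329 to 0.00946 over single left-out libraries. Over these, Vgll4 ran from −0.227 to 0.00149, Ctgf from −0.431 to 0.0838 and Cyr61 from −0.507 to 0.488. Ctgf was 0.123 without that pair. Cyr61 was −0.0422 and −0.032 with the block in DESeq2 and in edgeR, and −0.0566 with voom. The differences in the Tead1 share ran from −4.37 to −3.4 points over left-out libraries, and those in the Wwtr1 share from −2.38 to −0.305.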
